A study of Mus musculus with 9 samples.

Results

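The hypoxia-inducible factor HIF1 module followed here is a list of 35 mouse genes, named by symbol: HIF1A itself, established HIF target genes, the enzymes of lower glycolysis, and the bifunctional enzymes and transporters that act beside them. The genes share known roles; the list was drawn up with earlier results of these arrays known. It does not hold every enzyme of lower glycolysis. Of the 35, 31 had a probe set of their own and 30 passed the filter on low signals, out of 18193 genes with a probe set and 13278 genes tested. Eno2 was left below the filter. Gpi1 and Eno1 are not listed in the array annotation used, and Bnip3l shared its probe sets with another symbol. Gapdh had control probe sets and probe sets listed with several symbols, and none of its own outside the controls.

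The cells were cytotoxic T lymphocytes (CTL) grown from the spleens of 3 mice with the P14 transgene, a T cell receptor that recognises a peptide of lymphocytic choriomeningitis virus. The label gives their genotype as wild type. All groups had the same start: the peptide activated the splenocytes in the presence of interleukin 12 and interleukin 2. Activation took 48 h and the expansion after it 96 h, so the cultures ran for 6 days. During the last 2 days one culture of each spleen received rapamycin at 20 nM, one received KU-0063794 at 1 uM and one received the solvent DMSO, which gave 3 Affymetrix arrays per group. Rapamycin is an allosteric inhibitor of mTOR complex 1, and KU-0063794 is an inhibitor of the mTOR kinase site that blocks both mTOR complexes. No label gave the oxygen level of the cultures or the age of the mice.

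HIF1 is a transcription factor made of an oxygen-regulated alpha subunit and a constant beta subunit. With oxygen present, prolyl hydroxylases of the EGLN family mark the alpha subunit for degradation; with little oxygen, or when its synthesis is driven by growth signals, it accumulates and binds DNA at the core sequences ACGTG or GCGTG. Its targets include almost every enzyme of glycolysis, the kinase that keeps pyruvate out of mitochondria, transporters that export lactate, and the EGLN enzymes themselves. In effector CD8 T cells HIF1 and mTOR complex 1 are known to sustain glucose uptake and glycolysis.

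To show the DNA next to the start sites of members described below, from several roles and including the 1 called higher, the 250 bases before the RefSeq start are printed for 8 genes, on the build GRCm38.p6 and in the direction of the gene, with ACGTG or GCGTG on either strand in capitals. These 8 were picked with their array values known. The stretches lie at chr14:45318573-45318822 (Ero1a, minus strand), chr12:54203875-54204124 (Egln3, minus strand), chr7:138909507-138909756 (Bnip3, minus strand), chr11:54100674-54100923 (P4ha2, plus strand), chrX:106186850-106187099 (Pgk1, plus strand), chr7:46845554-46845803 (Ldha, plus strand), chr6:124814159-124814408 (Tpi1, minus strand) and chr6:71632918-71633167 (Kdm3a, minus strand).
Ero1a: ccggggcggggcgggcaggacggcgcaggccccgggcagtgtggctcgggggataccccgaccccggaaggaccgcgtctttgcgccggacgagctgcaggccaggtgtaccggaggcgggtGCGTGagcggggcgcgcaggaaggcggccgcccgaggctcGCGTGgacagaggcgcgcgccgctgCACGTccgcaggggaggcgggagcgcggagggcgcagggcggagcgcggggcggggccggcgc
Egln3: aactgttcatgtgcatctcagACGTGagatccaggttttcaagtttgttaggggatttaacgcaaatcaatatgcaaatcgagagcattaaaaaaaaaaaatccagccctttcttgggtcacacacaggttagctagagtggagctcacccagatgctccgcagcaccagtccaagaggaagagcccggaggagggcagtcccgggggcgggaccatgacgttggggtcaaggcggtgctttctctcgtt
Bnip3: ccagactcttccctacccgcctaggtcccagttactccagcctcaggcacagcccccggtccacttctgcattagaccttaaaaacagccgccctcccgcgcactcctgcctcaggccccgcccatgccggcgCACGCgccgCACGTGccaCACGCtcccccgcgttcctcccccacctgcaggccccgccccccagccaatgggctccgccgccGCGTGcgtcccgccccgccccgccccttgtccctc
P4ha2: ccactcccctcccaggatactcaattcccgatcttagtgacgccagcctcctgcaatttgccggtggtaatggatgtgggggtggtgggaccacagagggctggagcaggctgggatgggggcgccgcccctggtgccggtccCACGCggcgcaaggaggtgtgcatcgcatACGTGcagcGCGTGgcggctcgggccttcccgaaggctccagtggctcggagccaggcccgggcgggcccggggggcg
Pgk1: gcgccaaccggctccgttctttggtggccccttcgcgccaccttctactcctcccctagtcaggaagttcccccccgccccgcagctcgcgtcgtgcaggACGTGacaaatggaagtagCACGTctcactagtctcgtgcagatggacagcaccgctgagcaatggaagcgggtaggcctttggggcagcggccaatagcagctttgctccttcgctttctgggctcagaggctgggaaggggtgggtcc
Ldha: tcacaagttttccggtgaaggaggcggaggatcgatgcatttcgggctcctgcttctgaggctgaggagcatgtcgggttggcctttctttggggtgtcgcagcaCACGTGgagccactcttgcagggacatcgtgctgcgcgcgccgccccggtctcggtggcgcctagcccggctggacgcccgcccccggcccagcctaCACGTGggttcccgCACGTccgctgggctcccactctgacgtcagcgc
Tpi1: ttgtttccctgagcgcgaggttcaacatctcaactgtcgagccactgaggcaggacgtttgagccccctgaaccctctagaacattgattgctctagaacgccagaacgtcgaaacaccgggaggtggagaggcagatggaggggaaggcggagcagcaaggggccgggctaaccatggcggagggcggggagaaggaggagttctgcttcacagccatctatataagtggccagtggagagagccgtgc
Kdm3a: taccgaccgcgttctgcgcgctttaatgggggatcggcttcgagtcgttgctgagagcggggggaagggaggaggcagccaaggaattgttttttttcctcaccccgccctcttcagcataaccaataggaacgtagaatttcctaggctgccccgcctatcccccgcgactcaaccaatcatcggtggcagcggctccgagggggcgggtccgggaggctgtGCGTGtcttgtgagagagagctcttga
The Ero1a stretch holds 3 matches, at positions -128, -88 and -63 from the start of transcription, and the Egln3 stretch holds 1, at position -229. The Bnip3 and Ldha stretches hold 5 matches each, P4ha2 holds 3, Pgk1 holds 2 and Kdm3a holds 1, while the Tpi1 stretch has no match. Each strand is counted, so a CACGTG gives 2 matches. These lie at -108 and -107 in Bnip3, and at -145, -144, -48 and -47 in Ldha. Ldha has 2 promoters in the RefSeq table and Kdm3a has 3; the one with the most matches is shown.

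Across the whole window of 250 bases before to 50 after the start, 32 of the 35 members had a promoter in the table. At least 1 match to either core was found in 28 of these 32 (87.5%), beside 64.2% of the 10666 tested genes with a promoter and 46.7% of all 27025 genes in the table. The core ACGTG alone was found in 23 of 32 members (71.9%), beside 28% of tested genes, and GCGTG in 20 members (62.5%), beside 52.8%. The palindrome CACGTG, which holds ACGTG on both strands and is also the core of other factors' sites, was found in 8 members (25%), beside 11.1% of tested genes. These matches describe letters in a window, and binding was not measured here.

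The signals are log2 values per probe set, and where several probe sets measured a gene, the one brightest on average over the 9 arrays was taken; signals of different genes cannot be ranked against each other. A level of 2.05 log2, the 95th percentile of 37 genes restricted to other tissues, served as a background level; 18 of the 30 tested members were above it on all 9 arrays, 5 on some and 7 on none. The CTL label was checked against markers in DMSO cultures, where 9 of 9 markers of CD8 T cells were above background. None of 8 B cell, 4 CD4 T cell and 7 erythroid or stromal markers was above it, and neither were the NK and myeloid markers other than Klrk1 (1 of 4) and Fcer1g (1 of 12). The summed CD8 markers were 66.0 to 67.0 log2 in rapamycin cultures, 65.9 to 66.5 in KU-0063794 cultures and 64.9 to 66.8 in DMSO cultures. The actin control read 0.62 to 0.72 log2 higher at its 3′ end than at its 5′ end in rapamycin cultures, 0.65 to 0.70 in KU-0063794 cultures and 0.49 to 0.65 in DMSO cultures; the part of this in the results was not tested. In cultures of many cells, fewer cells that express a gene and less RNA per cell cannot be told apart.

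In cells given either mTOR inhibitor, transcripts of the HIF1 target Ero1a, the hydroxylases P4ha2 and Egln3, the mitochondrial receptor Bnip3 and all 4 tested members of lower glycolysis were lower than in DMSO cultures when the spleen was a block, and Kdm3a was higher. Among the genes of the sentence above, the oxidase Ero1a, P4ha2 and Egln3 lay furthest below DMSO, at -1.07 to -1.45 log2 over both contrasts. Plod2, described below, differed by -0.79 log2 with rapamycin and -1.24 log2 with KU-0063794. Over the 30 tested members the median difference was -0.41 log2 for rapamycin, beside -0.00 over all genes tested, and -0.38 log2 for KU-0063794, beside 0.01. In all 3 spleens, 24 members were lower with rapamycin and 19 with KU-0063794, beside 21.4% and 19.3% of all genes. Both contrasts use the same 3 DMSO arrays, so each one's values are given side by side.

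With limma and the spleen as a block, 15 of 30 members were lower with rapamycin (adjusted p under 0.05), beside 5.52% of all genes tested, and 1 was higher, beside 6.24%. With KU-0063794 16 of 30 were lower, beside 5.86% of all genes, and 1 was higher, beside 6.52%. The 15 called with rapamycin were among the 16 called with KU-0063794, and Rora was the other. Without the block, where the spread between spleens counts as error, 3 members were lower with rapamycin (beside 1.79% of all genes) and 1 higher (beside 2.65%). Without the block 2 were lower with KU-0063794 (beside 1.78%) and 1 higher (beside 2.28%). Among the 18 members above background on all 9 arrays, 11 were lower with the block in each contrast. Of the 6910 genes with a mean above background, 8.61% were lower with rapamycin and 9.61% with KU-0063794.

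The inhibitor and DMSO arrays did not overlap at all, with the inhibitor lower, for 13 members with rapamycin (beside 9.69% of all genes) and 12 with KU-0063794 (beside 9.29%). They did not overlap with the inhibitor higher for 1 member in each contrast, beside 9.38% and 11.0% of all genes. Below, an adjusted p is limma's over all 13278 genes, first without the spleen as a block and, after the word blocked, with it. An SE is from the fit without the block unless the blocked fit is named, so the SEs of different genes are not all comparable.

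**Figure D1:**
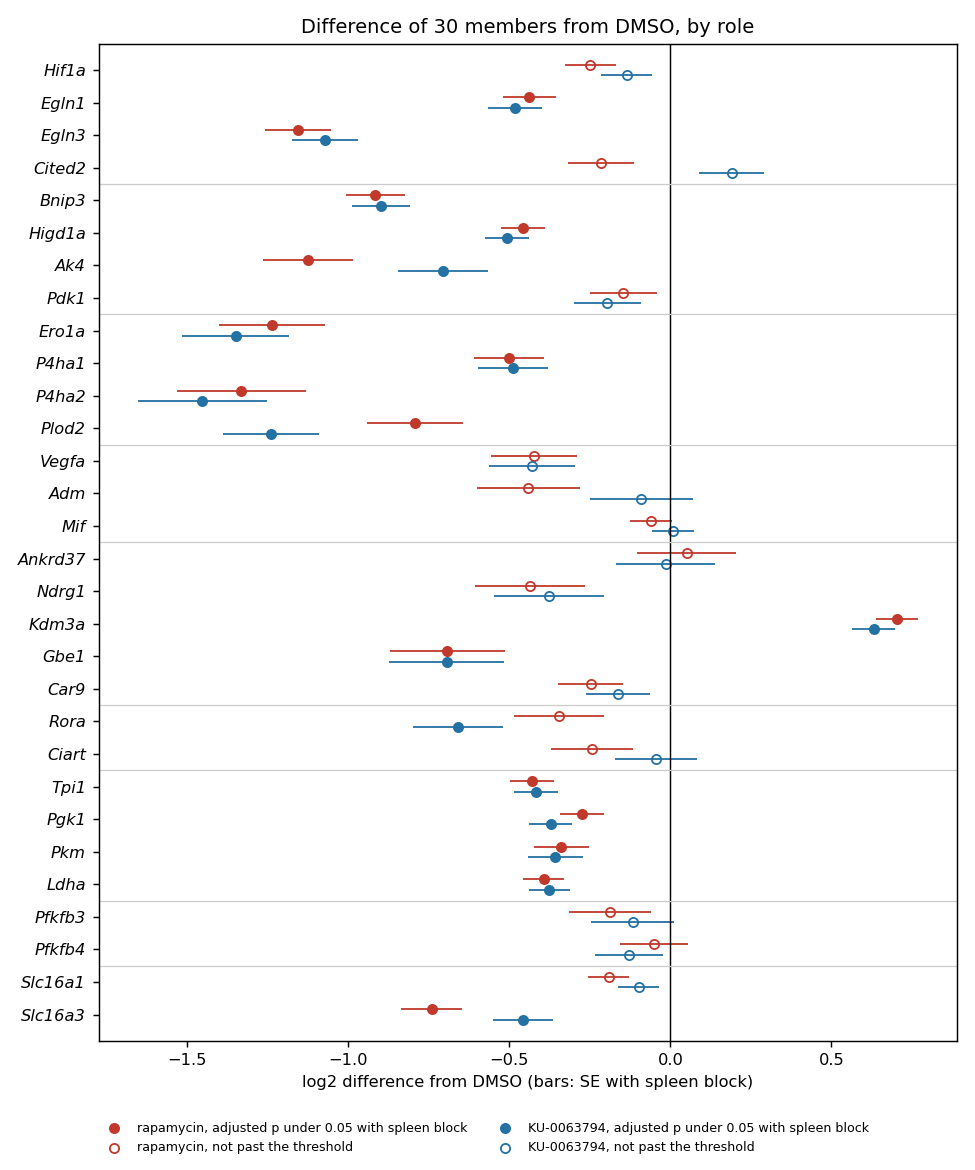
The log2 difference of each tested member from DMSO is plotted for rapamycin and for KU-0063794, with the members grouped by role, bars of 1 SE from the blocked fit, and filled points for members past the threshold in that fit. Kdm3a lies at 0.70 and 0.63 log2 on the higher side, and the lowest member for either inhibitor is P4ha2, at -1.33 and -1.45 log2.

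Among the genes of oxygen sensing, the hydroxylases Egln1 and Egln3 were called lower in the blocked fit of both contrasts, and Hif1a was not called. Hif1a, the alpha subunit, had 8.59, 8.40 and 8.08 log2 in rapamycin cultures, 8.72, 8.51 and 8.17 in KU-0063794 cultures and 8.85, 8.50 and 8.47 in DMSO cultures. These groups overlap, and the differences of -0.25 and -0.14 log2 did not pass (adjusted p = 0.520 and 0.759, blocked 0.0899 and 0.332). A further Hif1a probe set above background gave -0.04 and 0.10 log2. HIF1 activity is controlled mainly at the level of the protein, which the arrays do not measure.

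Egln3, a prolyl hydroxylase that HIF1 itself induces, had 5.16, 4.99 and 4.34 log2 in rapamycin cultures, 5.07, 5.12 and 4.54 in KU-0063794 cultures and 6.46, 6.11 and 5.39 in DMSO cultures. Every inhibitor array was below every DMSO array, and in each group spleen 3 gave the lowest value. Its level was 2.23-fold lower with rapamycin (-1.16 ± 0.10 log2, SE from the blocked fit; adjusted p = 0.0625, blocked 0.00189) and 2.10-fold lower with KU-0063794 (-1.07 log2; 0.0861, blocked 0.00170). Egln1, the main hydroxylase of HIF1 alpha in normal oxygen, differed by -0.44 log2 with rapamycin and -0.48 log2 with KU-0063794 (adjusted p = 0.0154 and 0.0101, blocked fit). The Egln1 groups overlap in both contrasts. A further Egln1 probe set above background gave 0.00 and 0.04 log2, so the gene's probe sets disagree. Cited2, a HIF-induced protein that competes with HIF1 for its coactivator, had 5.59, 5.48 and 5.58 log2 with rapamycin, 6.02, 5.84 and 6.01 with KU-0063794 and 5.65, 5.94 and 5.71 with DMSO. The rapamycin arrays lay below the DMSO arrays by a narrow margin and the KU-0063794 arrays overlapped them, and neither difference (-0.22 and 0.19 log2) passed (adjusted p = 0.233 and 0.289, blocked fit).

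Of the 4 tested members that act at mitochondria, 3 were called lower in the blocked fit of both contrasts. Bnip3, a receptor that marks mitochondria for autophagy, had 7.22, 7.39 and 6.65 log2 in rapamycin cultures, 7.41, 7.18 and 6.72 in KU-0063794 cultures and 8.23, 8.11 and 7.67 in DMSO cultures. No inhibitor array reached the lowest DMSO array. The difference was -0.92 ± 0.09 log2 with rapamycin (SE from the blocked fit; adjusted p = 0.0616, blocked 0.00220) and -0.90 log2 with KU-0063794 (0.0719, blocked 0.00181). Higd1a, a small protein of the respiratory chain induced by hypoxia, was lower by the same pattern, with 8.53, 8.37 and 8.17 log2 under rapamycin, 8.47, 8.26 and 8.19 under KU-0063794 and 9.05, 8.78 and 8.60 under DMSO. Its differences were -0.46 and -0.51 log2 (adjusted p = 0.00690 and 0.00486, blocked fit).

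Ak4, a mitochondrial adenylate kinase, was weakly expressed, with 2.04, 1.68 and 1.13 log2 in rapamycin cultures, 2.30, 1.84 and 1.97 in KU-0063794 cultures and 3.25, 2.47 and 2.51 in DMSO cultures. All 3 rapamycin arrays were below the background level, so its level there is only a bound, at least 1.62-fold lower than with DMSO (adjusted p = 0.0458, blocked 0.00377). With KU-0063794 the difference was -0.71 log2 (0.188, blocked 0.0173). The other probe sets of Ak4 had means below background. The mean of all 5 gave -0.30 log2 with rapamycin (limma adjusted p = 0.206, without the block). Pdk1, the kinase that keeps pyruvate dehydrogenase inactive and a textbook HIF1 target, had 5.85, 5.98 and 5.27 log2 with rapamycin, 5.78, 5.78 and 5.40 with KU-0063794 and 6.11, 5.81 and 5.62 with DMSO. The groups overlap, and neither difference (-0.15 and -0.20 log2) passed the test, with adjusted p = 0.436 and 0.285 with the block.

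**Figure D2:**
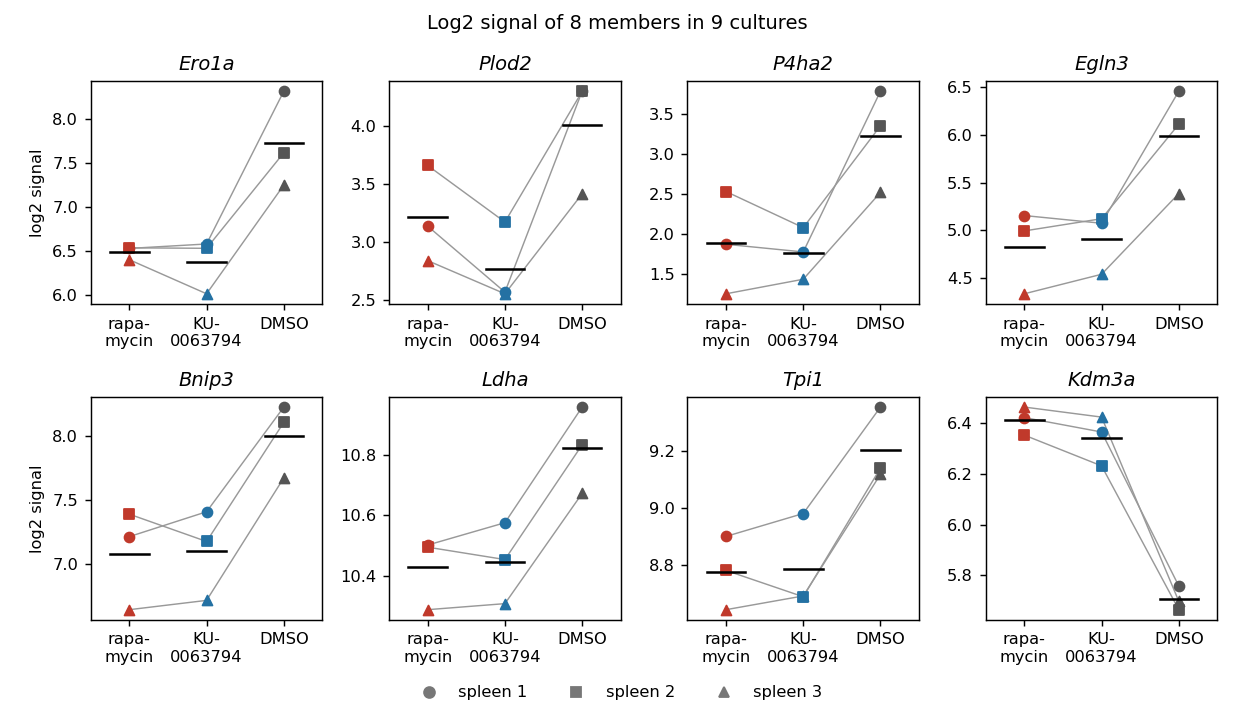
The log2 signal on each of the 9 arrays is plotted for selected members, with the 3 groups side by side, a grey line joining the cultures of each spleen and a black bar at the group mean. Ero1a lies at 6.40 to 6.54 log2 with rapamycin and 6.02 to 6.58 with KU-0063794, against 7.25 to 8.31 with DMSO, and Kdm3a is higher with either inhibitor in every spleen.

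The largest differences of the module were in the enzymes of protein folding and hydroxylation in the endoplasmic reticulum. All 4 members of this role were lower with either inhibitor when the spleen was a block, with a median of -1.01 log2 for rapamycin and -1.30 log2 for KU-0063794. Ero1a, the oxidase that passes electrons from disulphide formation to oxygen, had 6.53, 6.54 and 6.40 log2 in rapamycin cultures, 6.58, 6.53 and 6.02 in KU-0063794 cultures and 8.31, 7.62 and 7.25 in DMSO cultures. Its 3 rapamycin values lay close together, at 6.49 ± 0.08 log2 (SD, n = 3), although the DMSO cultures of the same spleens ranged over 7.73 ± 0.54 (SD, n = 3). Ero1a was 2.36-fold lower with rapamycin (-1.24 ± 0.25 log2, SE; adjusted p = 0.0252, blocked 0.00478) and 2.55-fold lower with KU-0063794 (-1.35 log2; 0.0202, blocked 0.00339). By spleen the difference was -1.78, -1.08 and -0.85 log2 with rapamycin and -1.73, -1.08 and -1.23 log2 with KU-0063794.

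Plod2, a lysyl hydroxylase of collagen, had 3.13, 3.66 and 2.84 log2 in rapamycin cultures, 2.57, 3.17 and 2.55 in KU-0063794 cultures and 4.30, 4.30 and 3.41 in DMSO cultures. Its groups overlap for rapamycin and not for KU-0063794. The difference was -0.79 log2 with rapamycin (adjusted p = 0.180, blocked 0.0149) and -1.24 ± 0.29 log2 (SE), 2.36-fold lower, with KU-0063794 (0.0459, blocked 0.00329).

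P4ha1 and P4ha2 are catalytic alpha subunits of collagen prolyl hydroxylase. P4ha2 had 1.87, 2.53 and 1.26 log2 in rapamycin cultures, 1.78, 2.08 and 1.44 in KU-0063794 cultures and 3.78, 3.35 and 2.52 in DMSO cultures. Only 1 of 3 arrays was above background with each inhibitor, against all 3 with DMSO. The P4ha2 groups overlap for rapamycin and not for KU-0063794. Its differences were -1.33 log2 (adjusted p = 0.0814, blocked 0.00693) and -1.45 log2 (0.0633, blocked 0.00510). P4ha1 was above background on every array and differed by -0.50 and -0.49 log2 (adjusted p = 0.0236 and 0.0256, blocked fit). Its inhibitor and DMSO arrays overlap in both contrasts.

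The secreted factors on the list were not called in either contrast, with or without the block. Without the block 2 had an unadjusted limma p under 0.05 with rapamycin and 1 with KU-0063794, beside 17.9% and 18.5% of all genes tested. Vegfa, the vascular growth factor, was below background on all 9 arrays and differed by -0.42 and -0.43 log2 (adjusted p = 0.0877 and 0.0797, blocked fit). Adm, which encodes the vasodilator peptide adrenomedullin, was also below background and differed by -0.44 and -0.09 log2. Mif, a cytokine with a HIF1-responsive promoter, was well above it at 10.16, 10.00 and 10.08 log2 in rapamycin cultures, 10.25, 10.07 and 10.13 in KU-0063794 cultures and 10.17, 10.08 and 10.17 in DMSO cultures. The groups overlap, and its differences were -0.06 and 0.01 log2.

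Kdm3a, a histone lysine demethylase and HIF target, was the only member called higher. It had 6.42, 6.35 and 6.46 log2 in rapamycin cultures, 6.36, 6.23 and 6.42 in KU-0063794 cultures and 5.76, 5.67 and 5.70 in DMSO cultures. Every inhibitor array was above every DMSO array, and the spread within each group was at most 0.10 log2 (SD). Kdm3a was 1.63-fold higher with rapamycin (0.70 ± 0.08 log2, SE; adjusted p = 0.00525, blocked 0.00196) and 1.55-fold higher with KU-0063794 (0.63 log2; 0.00842, blocked 0.00215).

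Of the other targets, Ndrg1, a stress-responsive protein, had 4.73, 5.14 and 4.55 log2 with rapamycin, 4.54, 5.22 and 4.83 with KU-0063794 and 5.46, 5.60 and 4.67 with DMSO, and its differences of -0.44 and -0.38 log2 did not pass (adjusted p = 0.156 and 0.209, blocked fit). Gbe1, the glycogen branching enzyme, was above background on 1 DMSO array alone; it differed by -0.69 log2 with each inhibitor (adjusted p = 0.0441 and 0.0423, blocked fit). No inhibitor array of Gbe1 was above background, its groups overlap in both contrasts, and no fold is given. Car9, a carbonic anhydrase, and Ankrd37 were below background throughout and were not called, with differences of -0.25 and -0.16 log2 for Car9 and 0.05 and -0.01 log2 for Ankrd37. Of the 2 circadian members, the nuclear receptor Rora was above background on 1 DMSO array and differed by -0.35 log2 with rapamycin (adjusted p = 0.170, blocked fit) and -0.66 log2 with KU-0063794 (0.0221), with no inhibitor array above background and no fold given. Ciart was below background and differed by -0.24 and -0.04 log2, without a call.

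Lower glycolysis carries triose phosphates to lactate, and other enzymes of these steps are counted below with the other glycolysis genes. All 4 tested members of this role were lower with either inhibitor, with a median of -0.37 log2 in each contrast. All 4 were called with the spleen as a block. Without it none was, although all 4 had an unadjusted limma p under 0.05 in both contrasts, beside 17.9% and 18.5% of all genes tested. Tpi1, triose phosphate isomerase, had 8.90, 8.78 and 8.64 log2 in rapamycin cultures, 8.98, 8.69 and 8.69 in KU-0063794 cultures and 9.35, 9.14 and 9.12 in DMSO cultures. The groups did not overlap, and the difference was -0.43 ± 0.07 log2 with rapamycin (SE from the blocked fit; adjusted p = 0.0696, blocked 0.00785) and -0.42 log2 with KU-0063794 (0.0813, blocked 0.00814).

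Pgk1, phosphoglycerate kinase, had 10.27, 10.26 and 10.07 log2 with rapamycin, 10.25, 10.09 and 9.96 with KU-0063794 and 10.64, 10.45 and 10.33 with DMSO. It differed by -0.28 and -0.37 log2 (adjusted p = 0.0389 and 0.0130, blocked fit), and its groups did not overlap. Pkm, a pyruvate kinase, had 7.70, 7.66 and 7.39 log2 with rapamycin, 7.76, 7.58 and 7.36 with KU-0063794 and 8.13, 7.78 and 7.85 with DMSO. It differed by -0.34 and -0.36 log2 (adjusted p = 0.0429 and 0.0351, blocked fit). Ldha, the lactate dehydrogenase subunit that turns pyruvate to lactate, averaged 10.43 ± 0.12 log2 in rapamycin cultures, 10.45 ± 0.13 in KU-0063794 cultures and 10.82 ± 0.14 in DMSO cultures (SD, n = 3 each). Its differences were -0.39 and -0.38 log2 (adjusted p = 0.00912 and 0.0100, blocked fit), and no inhibitor array reached a DMSO array. Eno2, an enolase typical of neurons, was below background, at 0.25, 0.09 and 0.39 log2 with rapamycin, -0.05, 0.16 and 0.47 with KU-0063794 and 0.87, 0.55 and 0.06 with DMSO, and was not tested.

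Gapdh was read from the array's own control probe sets, which were added here after the data were seen. Its 3 probe sets listed with several symbols were not used. At the 3′ end it averaged 9.84 ± 0.11 log2 in rapamycin cultures, 9.82 ± 0.14 in KU-0063794 cultures and 10.23 ± 0.18 in DMSO cultures (SD, n = 3 each). The differences were -0.39 and -0.41 log2 (adjusted p = 0.0134 and 0.00999, blocked fit). The 5′ probe set gave -0.33 and -0.37 log2 (0.0262 and 0.0164), and at the 3′, middle and 5′ positions the inhibitor was lower in 3 of 3 spleens. The beta-actin control had 11.81, 11.70 and 11.72 log2 at the 3′ end in rapamycin cultures, 11.80, 11.75 and 11.78 in KU-0063794 cultures and 12.00, 12.02 and 11.98 in DMSO cultures. Its middle and 5′ probe sets were likewise below every DMSO array on every inhibitor array, and the part of this in the differences of Gapdh and the glycolysis members was not tested.

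The bifunctional enzymes that set fructose 2,6-bisphosphate, the activator of phosphofructokinase, were not called, and neither had an unadjusted limma p under 0.05. Pfkfb3 had 2.22, 2.15 and 1.83 log2 with rapamycin, 2.11, 2.15 and 2.15 with KU-0063794 and 2.63, 2.15 and 1.99 with DMSO, close to the background level, with differences of -0.19 and -0.12 log2. Pfkfb4 was below it and differed by -0.05 and -0.13 log2. The monocarboxylate transporters, which move lactate across the membrane, are the last role of the list. Slc16a1 had 6.21, 7.08 and 6.77 log2 with rapamycin, 6.32, 7.11 and 6.91 with KU-0063794 and 6.44, 7.22 and 6.97 with DMSO, with spleen 1 lowest in every group, and its differences of -0.19 and -0.10 log2 did not pass (adjusted p = 0.104 and 0.390, blocked fit). Slc16a3, the isoform induced by HIF1, was called lower with rapamycin (-0.74 ± 0.15 log2, SE; adjusted p = 0.0248, blocked 0.00396), and with KU-0063794 the difference was -0.46 log2 (0.124, blocked 0.0196). All 9 of its arrays, however, were below the background level, at 0.25, 0.32 and 0.07 log2 with rapamycin, 0.67, 0.48 and 0.34 with KU-0063794 and 1.02, 1.19 and 0.65 with DMSO.

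Genes of the same pathways outside the module were counted from lists that were likewise drawn up with earlier results of these arrays known. Of 30 other HIF targets 23 were tested, and 5 were lower with either inhibitor without the block, 9 with it, and 0 higher. Over all genes, 1.79% and 1.78% were lower without the block and 5.52% and 5.86% with it, for rapamycin and KU-0063794. The 5 included Anxa1, an inhibitor of phospholipase (-1.58 log2 with rapamycin, adjusted p = 0.0271, and -1.60 log2 with KU-0063794, 0.0285), and Ddit4, an inhibitor of mTOR complex 1 (-1.08, 0.00872, and -1.02 log2, 0.0114). Hilpda, a lipid droplet protein, differed by -1.30 and -0.95 log2 (0.0148 and 0.0457), and Stc2, a secreted glycoprotein, by -0.55 and -0.76 log2 (0.00695 and 0.00304). Hmox1 differed by -0.73 and -0.59 log2 (0.0183 and 0.0419). Its means were 1.52 log2 with rapamycin and 1.66 with KU-0063794, below the background level, and 2.25 with DMSO.

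Of 31 other glycolysis genes 27 were tested, and 3 were lower with either inhibitor without the block, 8 with it, and 0 higher. The shares of all genes are those given for the other targets. The 3 were the aldolase Aldoc (-1.11 and -1.52 log2; adjusted p = 0.0177 and 0.0102), the phosphofructokinase Pfkp (-0.58 and -0.66 log2; 0.0461 and 0.0293) and the phosphoglycerate mutase Pgam1 (-0.60 and -0.61 log2; 0.0203 and 0.0202). Pgam1 acts in lower glycolysis, as do the enolase Eno3 and the lactate dehydrogenase subunit Ldhb. Eno3 differed by 0.12 and 0.18 log2 and Ldhb by -0.15 and -0.29 log2, and neither was called with or without the block. None of the 18 other components of the HIF pathway, such as partners, hydroxylases and ubiquitin ligases, passed without the block. At an unadjusted limma p under 0.05 there were 4 in each contrast, beside 17.9% and 18.5% of all genes tested. With the block Epas1, the alpha subunit of HIF2, and the ubiquitin ligase Siah2 were called lower with both inhibitors, beside 5.52% and 5.86% of all genes. Siah1a was called higher with KU-0063794, beside 6.52% of all genes. The group means of Epas1 (0.59 log2 with rapamycin, 0.68 with KU-0063794 and 1.52 with DMSO) were all below the background level. Of 9 tested genes for pyruvate entry to mitochondria, Pdp1, the phosphatase that activates pyruvate dehydrogenase, was higher with the block in both contrasts (0.56 and 0.46 log2). Of all genes, 6.24% and 6.52% were higher in these fits. The medians were -0.14 and -0.16 log2 for the other targets, -0.18 and -0.09 for other glycolysis, -0.09 and -0.09 for pathway components, and -0.12 and -0.12 for pyruvate entry.

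KU-0063794 was set against rapamycin directly to ask whether the inhibitors differed on these genes. No member and no gene of the 13278 tested passed in limma, without or with the block (0% of genes in either direction). At an unadjusted p under 0.05 without the block there were 1 member and 629 genes, 4.74% of those tested. The median difference of the members was 0.01 log2. The 1 member was Cited2, which was higher with KU-0063794 in every spleen, by 0.41 log2 (95% interval with the block 0.17 to 0.64, not adjusted for the number of genes; adjusted p = 0.933, blocked 0.338).

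Ak4 differed by 0.42 log2 (0.09 to 0.74), Slc16a3 by 0.28 log2 (0.07 to 0.50) and Plod2 by -0.45 log2 (-0.79 to -0.10), and none of the 3 passed. Ak4 was not above background on any rapamycin array and Slc16a3 on any array, so their values are differences of signal and not measured differences in level. For Ero1a, Egln3, Bnip3 and P4ha2 the intervals spanned 0: -0.11 log2 for Ero1a (-0.50 to 0.27), 0.08 for Egln3 (-0.15 to 0.32), 0.02 for Bnip3 (-0.19 to 0.23) and -0.12 for P4ha2 (-0.59 to 0.34). They also spanned 0 for Ldha (-0.13 to 0.17), Tpi1 (-0.14 to 0.17) and Kdm3a (-0.23 to 0.08). With 3 spleens these intervals bound the difference between the inhibitors and do not show that they act alike.

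**Figure D3:**
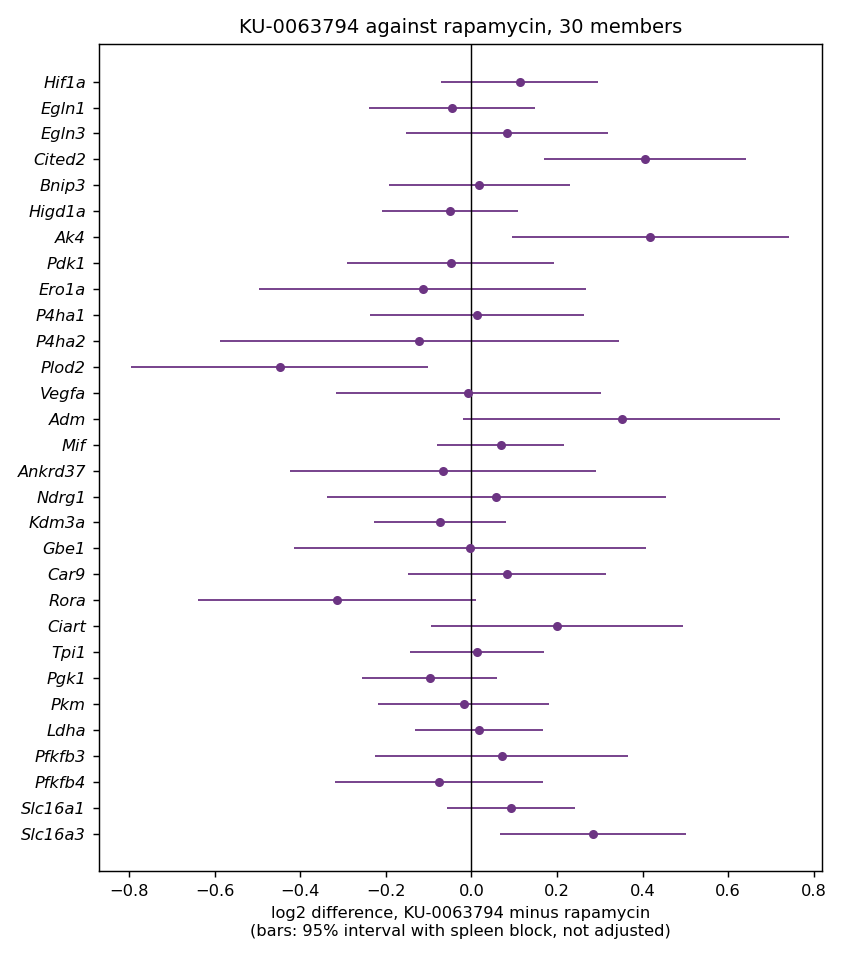
The log2 difference of KU-0063794 minus rapamycin is plotted for each tested member as a point, with its 95% interval from the fit with the spleen as a block. Cited2 lies at 0.41 and Plod2 at -0.45 log2, and the median of the members is 0.01 log2.

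The members also varied between spleens, in DMSO as well as with the inhibitors. The array of spleen 1 was above that of spleen 3 for 26 of 30 members with rapamycin, 21 with KU-0063794 and 27 with DMSO, beside 49.3%, 44.2% and 43.3% of all genes. In all 3 groups at once this held for 19 of 30 members, beside 17.1% of all genes. The median member was 0.30 log2 higher in spleen 1 than in spleen 3 with rapamycin, 0.28 with KU-0063794 and 0.47 with DMSO. What sets the spleens apart was not given in the labels, and each spleen contributed 1 array per group.

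Measured from each member's mean over the 9 arrays, the median deviation was -0.01, -0.05 and -0.34 log2 on the 3 rapamycin arrays, -0.00, -0.06 and -0.24 on the KU-0063794 arrays and 0.47, 0.24 and 0.02 on the DMSO arrays. The DMSO array of spleen 3 was thus near the inhibitor arrays of spleens 1 and 2 in level, and within each spleen the DMSO array was highest. Of the 15 members called lower with rapamycin with the block, 9 had their largest difference in spleen 1, 1 in spleen 2 and 5 in spleen 3. Of all 733 genes called lower in that fit, the shares were 43.2%, 20.3% and 36.4%. Of the 16 called with KU-0063794 the numbers were 11, 2 and 3, beside 60.4%, 13.5% and 26.1% of all 778 genes called lower.

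**Figure D4:**
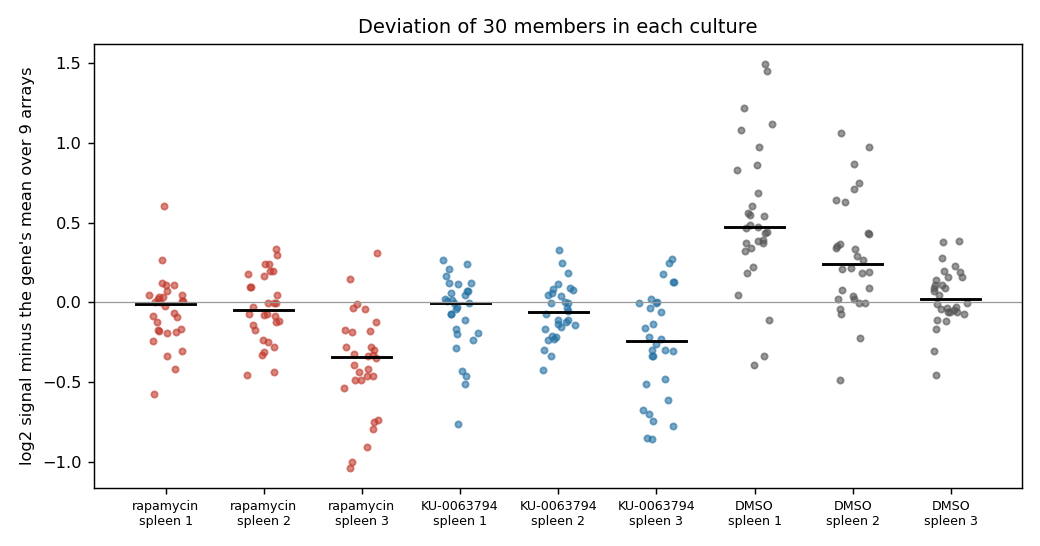
Each tested member's log2 deviation from its own mean over the 9 arrays is plotted for every array, with the median over the members marked. The medians are -0.01, -0.05 and -0.34 with rapamycin, -0.00, -0.06 and -0.24 with KU-0063794 and 0.47, 0.24 and 0.02 with DMSO for spleens 1, 2 and 3.

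With 1 array left out in turn and the spleen as a block, 8 to 14 members were lower with rapamycin, when 2.24% to 4.77% of all genes were, and 7 to 15 with KU-0063794, when 2.36% to 4.96% were. The fewest were left without the rapamycin array of spleen 1 (8) and, for KU-0063794, without the DMSO array of spleen 1 (7). Without the DMSO array of spleen 1, the rapamycin array of spleen 2 or that of spleen 3, 10 members were lower with rapamycin, and 9 were lower with KU-0063794 without its array of spleen 2 and 10 without that of spleen 1. Bnip3, Egln3, Ero1a, Higd1a, P4ha2 and Tpi1 were called lower in both contrasts in each of these 9 fits. With a whole spleen left out, 0, 6 and 0 members were lower with rapamycin without spleens 1, 2 and 3, when 0.0377%, 1.62% and 0.105% of all genes were. For KU-0063794 the numbers were 3, 6 and 2, when 0.497%, 2.32% and 0.64% of all genes were lower. In the fits without the block, Ero1a was no longer called for rapamycin without any 1 of its 3 arrays or the DMSO array of spleen 1 (adjusted p = 0.0509 to 0.0965), and for KU-0063794 without any 1 of its 3 arrays (0.0583 to 0.0720). Ak4 was no longer called without any 1 of the 9 arrays (0.0516 to 0.137). Slc16a3 was no longer called without any 1 rapamycin array or the DMSO array of spleen 1 or 2 (0.0533 to 0.0965). Plod2 kept its call only without the DMSO array of spleen 3 or the rapamycin array of spleen 2 (otherwise 0.0571 to 0.171). Without the block, Kdm3a was called higher in both contrasts in each of the 9 fits with 1 array left out and was not called when any 1 of the 3 spleens was left out (adjusted p = 0.0719 to 0.134 with rapamycin and 0.0696 to 0.145 with KU-0063794).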

How the data were processed

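Total RNA of each culture was measured on an Affymetrix mouse array. The deposited values are log2 signals per probe set, made by the authors with Affymetrix Expression Console 1.3.1, per the submitters' processing notes; how background and normalization were handled is not given in the sources used here. Array medians were 0.47 to 0.53 log2 and no further normalization was applied. Probe sets were named from GEO's platform annotation: 34945 of 45037 had 1 symbol, 932 several and 9160 none listed. The probe sets used for Pgk1, Adm, Ak4 and Ndrg1 end in _x_at or _s_at, for possible matches to several transcripts. Those used for Hif1a, Higd1a, Pdk1, Gbe1, Tpi1, Ldha and Eno2 end in _a_at, which also allows several transcripts. These matches were not tested. Genes with a mean above the 40th percentile (0.31 log2) entered a fit with limma 3.58.1 under R 4.3.3 (lmFit and eBayes over all 9 arrays, two-sided, Benjamini-Hochberg). A fold is given only where each group had an array above background; where one group had none, only a bound that exceeds 1 is given. Other log2 differences of genes not above background are differences of signal. The background level is raised by Mbp (4.39 log2) and Pomc (2.26 log2).

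The labels state that arrays of one replicate number share a spleen. Their deviations from the group mean correlated (r = 0.345 to 0.533 in 9 pairs), so blocked values are printed too. With these positive, the centring on group means makes the 18 other pairs negative on average (-0.414 to -0.0791), so they are no separate contrast. All members with a probe set are named, and from other lists at most 5 called genes a direction. Members and lists were chosen with earlier results of these data known. The fit without the block was tested on simulated data that held no spleen effect, and the blocked fit was not tested in this way. The other settings tried were a random block, only the 2 groups compared, other normalization, filters and probe set rules, a moderated trend, and arrays or spleens left out. With 3 arrays per group, the number of arrays limits the precision. Promoters are RefSeq's, build GRCm38.p6.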

Additional observations from a re-analysis of the deposited data

How the results depend on the processing

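With the spleen as a fixed replicate block, genes called for rapamycin numbered 1561 (590 without it) and members lower 15 (3 without it); as a random block they numbered 1245 and 9. For KU-0063794 the fixed block gave 1644 genes (540 without it) and 16 members (2 without it), and the random block 1291 and 10. Only the 2 groups compared gave 98 genes and 0 members for rapamycin and 111 genes and 0 members for KU-0063794, from fewer arrays. Members lower with rapamycin numbered 5 over genes above background, 1 with the mean of a gene's probe sets and 5 with a trended, robust moderation. For KU-0063794 they numbered 5, 1 and 6 under these, 1 with no filter and 1 with every probe set fitted. The mean of a gene's probe sets moved the members' median to -0.27 log2 for rapamycin (-0.41 otherwise) and -0.20 log2 for KU-0063794 (-0.38 otherwise). The cause of these shifts was not tested.

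Leaving out arrays or spleens gave 0 to 514 genes for rapamycin and 0 to 548 for KU-0063794, 0 to 5 and 0 to 6 members lower, 0 to 1 higher in each, and medians of -0.51 to -0.27 and -0.46 to -0.28 log2. The median of KU-0063794 minus rapamycin was -0.0897 to 0.0795 log2. With the block, members lower were 0 to 14 and 2 to 15. The fits without a whole spleen gave the lowest counts of genes; with 1 array left out they were 183 to 514 and 123 to 548.

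Signs turned only for members that were not called. Mif was 0.0079 log2 for rapamycin and Slc16a1 0.012 log2 for KU-0063794 with the mean of probe sets, and Mif was -0.00043 log2 for KU-0063794 with median centring. With arrays or spleens left out, the rapamycin difference was -0.30 to 0.0674 log2 for Pdk1, -0.23 to 0.23 for Ankrd37, -0.15 to 0.10 for Pfkfb4 and -0.41 to 0.0476 for Slc16a1. The KU-0063794 difference was -0.26 to 0.01 log2 for Hif1a, -0.25 to 0.19 for Adm, -0.0410 to 0.0477 for Mif, -0.12 to 0.10 for Ankrd37, -0.13 to 0.0940 for Ciart, -0.26 to 0.0820 for Pfkfb3, -0.19 to 0.00 for Pfkfb4 and -0.32 to 0.13 for Slc16a1. Calls of members above background on no array, Slc16a3 among them, rest on signals that cannot be told from background.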
